A study of Mus musculus with 12 samples.

Results

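The type I interferon-stimulated genes described here are 48 mouse genes, chosen by name from the 54532 genes listed in the deposited expression table, and all 48 were found. RNA was sequenced from whole hippocampi taken on postnatal day 15 from pups of C57BL/6J, a common inbred strain. They had been injected on day 3 under the skin and on day 14 into the abdomen, and the letters of the 4 group names stand for these injections in turn, L for 5 mg/kg lipopolysaccharide (LPS, an outer membrane molecule of bacteria that the innate immune system recognises) and S for saline. LL pups received LPS on both days, SL pups saline and then LPS, LS pups LPS and then saline, and SS pups saline on both days. Hippocampi were collected 24 h after the day 14 injection from 3 animals per group. No group carried a genetic change, and the labels do not state sex.

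Type I interferons are cytokines that bind a receptor made of Ifnar1 and Ifnar2, and the kinases Jak1 and Tyk2 then start a signal to the nucleus. There a complex that contains Stat2 and Irf9 binds the interferon-stimulated response element (ISRE) in the promoters of target genes, whose products sense viral RNA, degrade it, block its translation or hinder virus entry and release. LPS is known to start this programme through Tlr4 and the adaptor Ticam1, and in the brain microglia, astrocytes and endothelial cells are known to carry it out.

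Promoter sequences of 36 of the 48 genes were matched in RefSeq (GRCm38.p6), each window running from 250 bases before to 50 bases after the transcription start. Windows were not matched for Dhx58, Oas2, Usp18, Parp9, Parp14, Rtp4, Mx1, Mx2, Zbp1, Ifi204, Ifi27 and Ifi27l2a. The letters searched for the ISRE were a pair of GAAA half-sites with any 2 bases between them, read on the other strand as TTTC, any 2 bases and TTTC. They occurred in 18 of the 36 members (50%), against 3.44% of all 32851 promoter windows of the same length. A member counted if any of its windows had a match. Counted in that way, 3.60% of the 11585 tested genes with a window had one. The 9 stretches shown end at the base before the start, read 5′ to 3′ on the strand of the gene, and have the ISRE matches in capitals. They are shown for the share of their LPS response kept in pups given LPS before, on the FPKM scale described further on. On that scale Isg15, Ifit1, Ifit3, Ifit3b, Rsad2 and Cmpk2 kept little, and Bst2, Lgals9 and Slfn5 kept much. Isg15 lies at chr4:156200819-156200918 on the minus strand, Rsad2 at chr12:26456453-26456582 on the minus strand, Bst2 at chr8:71537473-71537612 on the minus strand and Lgals9 at chr11:78984925-78984994 on the minus strand. On the plus strand lie Ifit1 at chr19:34640769-34640888, Ifit3 at chr19:34583359-34583528, Ifit3b at chr19:34607757-34607956, Cmpk2 at chr12:26469065-26469214 and Slfn5 at chr11:82951932-82952101.
Isg15: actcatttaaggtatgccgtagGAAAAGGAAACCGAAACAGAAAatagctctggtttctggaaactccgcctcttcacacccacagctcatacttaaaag
Ifit1: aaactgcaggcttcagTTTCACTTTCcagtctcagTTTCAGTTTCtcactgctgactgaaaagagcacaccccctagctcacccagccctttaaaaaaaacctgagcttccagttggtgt
Ifit3: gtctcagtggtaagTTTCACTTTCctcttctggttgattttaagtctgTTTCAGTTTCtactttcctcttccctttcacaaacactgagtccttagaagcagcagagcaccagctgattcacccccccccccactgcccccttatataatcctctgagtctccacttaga
Ifit3b: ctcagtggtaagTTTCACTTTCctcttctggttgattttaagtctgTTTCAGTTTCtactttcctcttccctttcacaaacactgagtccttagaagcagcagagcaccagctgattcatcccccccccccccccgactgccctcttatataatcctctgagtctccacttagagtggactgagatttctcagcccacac
Rsad2: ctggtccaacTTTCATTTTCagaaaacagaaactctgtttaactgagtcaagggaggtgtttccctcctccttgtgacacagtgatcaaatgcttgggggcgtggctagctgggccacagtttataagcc
Cmpk2: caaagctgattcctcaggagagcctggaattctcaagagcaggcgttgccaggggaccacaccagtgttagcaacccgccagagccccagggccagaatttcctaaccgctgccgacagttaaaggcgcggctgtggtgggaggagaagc
Bst2: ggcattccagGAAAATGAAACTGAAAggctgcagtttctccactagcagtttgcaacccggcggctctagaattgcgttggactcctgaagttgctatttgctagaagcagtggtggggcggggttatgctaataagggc
Lgals9: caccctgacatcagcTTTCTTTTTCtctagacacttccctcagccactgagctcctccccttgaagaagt
Slfn5: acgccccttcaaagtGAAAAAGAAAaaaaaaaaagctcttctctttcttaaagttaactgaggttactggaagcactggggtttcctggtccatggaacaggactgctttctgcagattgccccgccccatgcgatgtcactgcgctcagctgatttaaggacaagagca
In Isg15 the capitals hold 3 overlapping matches and in Bst2 they hold 2, so that 1 unbroken run of capitals can stand for several matches. Ifit1, Ifit3 and Ifit3b each had a pair of separate matches with the same letters, TTTCACTTTC and TTTCAGTTTC. The windows of Ifit3 and Ifit3b shared an unbroken run of 169 identical bases that includes both matches. Cmpk2, the neighbour of Rsad2 on chromosome 12, had no match in its window.

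In 13 of the 18 members a match lay before the start, and 10 members had more than 1 match in a window. The palindromic GAS letters TTCNNNGAA, known from promoters of interferon gamma targets, occurred in 7 of 36 members (19.4%). They occurred in 8.12% of the tested genes with a window and in 8.30% of all windows. In Ifitm3 and Bst2 they overlapped an ISRE match. The NF-kB motif, the site of a factor family that LPS also activates, occurred in 2 members (5.56%), Bst2 and Oasl1, with no overlap with an ISRE match. It occurred in 6.58% of the tested genes with a window and in 4.51% of all windows. A match is a description of the letters and was not tested as a binding site.

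**Figure D1:**
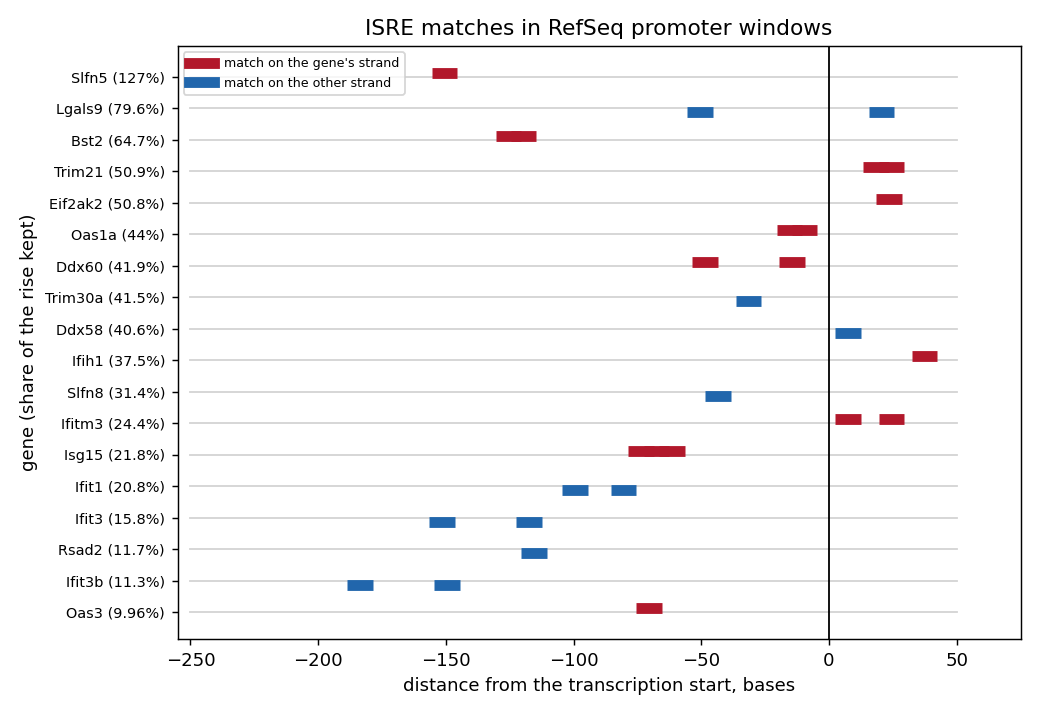
Positions of ISRE matches in the promoter windows of the 18 members that had one, in bases from the transcription start (x axis); red blocks are matches on the strand of the gene, blue blocks on the other strand, and for a gene with several windows the one at the highest coordinate is drawn. Genes run from the highest share of the rise kept (Slfn5, 127%) to the lowest (Oas3, 9.96%). Only members with a match are drawn, so the order cannot show how matches relate to the share kept.

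Levels are FPKM, the fragments of a gene per kilobase of its length, scaled to the depth of the library. Differences are of log2(FPKM + 0.5), so the change of genes with low levels is understated. The libraries held 16979666 to 24105022 fragments in listed genes, and 1 fragment in a gene of 1 kb was worth 0.0402 to 0.0587 FPKM. A gene was tested if 3 or more libraries had 0.5 FPKM or more, which held for 17687 genes and 46 members. Ddx60 and Oas3 did not, and Oas2, Oasl1, Herc6, Mx1, Zbp1, Phf11d and Ifi44 passed only through the SL libraries, so these 7 had to differ. Of the 7 hippocampal neuron markers none was called in any comparison by limma, with summed levels of 506 to 549 FPKM in LL, 488 to 553 in SL, 522 to 616 in LS and 526 to 573 in SS. Neutrophil markers summed to 3.62 to 5.73 FPKM in LL, 115 to 236 in SL, 1.52 to 2.05 in LS and 0.910 to 1.72 in SS, with Ly6g at 0 in every LL and LS library, Retnlg at 0 in LS, and Mmp8 and Cxcr2 at 0 in SS. Choroid plexus markers, of the secretory tissue beside the hippocampus, summed to 2396 to 3459 FPKM in LL, 679 to 942 in SL, 38.6 to 1234 in LS and 2352 to 2804 in SS, and LS replicates 2 and 3 stood apart with low levels.

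Set against SS, SL hippocampi showed the response of the interferon-stimulated genes to LPS in pups without LPS on day 3. The summed level of the 48 members was 504, 498 and 395 FPKM in SL libraries and 92.4, 81.1 and 89.6 FPKM in SS libraries. Ifitm3 alone made up 245, 189 and 151 FPKM of these sums in SL and 12.9, 11.7 and 14.5 in SS. Of the 46 members tested, 45 rose and none fell, while of all genes tested 7.06% rose and 3.77% fell. The exception was Adar. The 45 include Oas2, Oasl1, Herc6, Mx1, Zbp1, Phf11d and Ifi44, which passed the filter only through the SL libraries and had to differ. The members' median difference was 1.54 and ranged from 0.15 (Adar) to 3.83 (Ifitm3), and the median of all genes tested was -0.00. Over all 48 members, Oas3 and Ddx60 included, every SL library lay above every SS library in 47, a separation seen in 13.8% of the genes tested. The 47 also include the 7 members that passed the filter only through the SL libraries. All 7 neutrophil markers tested, of 9 listed, rose as well. So did all 3 monocyte markers tested, of 6 listed. The monocyte markers summed to 5.79 to 9.99 FPKM in SL and 0.659 to 0.954 FPKM in SS, with Ly6c2 at 0 in SS. Of the neutrophil and monocyte markers tested, Retnlg, Ngp, Mmp8, Camp, Cxcr2, Chil3 and Plac8 passed the filter only through the SL libraries and had to differ. Of the choroid plexus markers 6 of 15 were called lower, at a median difference of -1.59 over the 15. They summed to 679 to 942 FPKM in SL and 2352 to 2804 in SS. Of the meningeal fibroblast markers 4 of 10 were called lower, and of the microglial markers 4 of 10 were called lower and 2 higher. The part of these cell types in the members' rise was not tested; in bulk tissue more cells of a type and more RNA per cell cannot be told apart.

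Set against LS, LL hippocampi showed the same genes' response to LPS in pups that had received it on day 3. The summed level was 176, 237 and 229 FPKM in LL libraries and 83.4, 79.5 and 76.1 FPKM in LS libraries. Of these sums, Ifitm3 made up 44.1, 71.8 and 51.1 FPKM in LL and 11.9, 11.2 and 10.5 in LS. Here 31 members rose and none fell, while of all genes 2.4% rose and 0.26% fell. The members' median difference was 0.77, from -0.02 (Adar) to 2.59 (Ifi27l2a), and that of all genes was -0.00. Every LL library lay above every LS library in 45 of the 48 members (11% of the genes tested), the exceptions being Adar, Cmpk2 and Oas3. Fewer members were called without LS replicates 2 and 3: 6 members were called (Bst2, Ifitm3, Rtp4, Eif2ak2, Lgals3bp and Lgals9), at a median difference of 0.79, where the remaining LS library is assumed to vary like the other groups, and with a choroid plexus covariate (the mean log2 level of its markers) 2 were called (Bst2 and Lgals9), at a median of 0.75. Of the 15 choroid plexus markers 13 were higher in LL than in LS. With each library left out in turn, 22 of the 31 calls held, and those lost without at least 1 library were Ifih1, Dhx58, Oas2, Parp12, Slfn5, Zbp1, Xaf1, Ifi35 and Ifi44. The calls of Dhx58 and Ifi44 (limma adjusted p = 0.0442 and 0.0390) were lost in 11 and 9 of the 12 fits.

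The difference of the responses, (LL minus LS) minus (SL minus SS), was negative for 18 members and positive for none, with 3.19% of all genes called negative and 2.14% positive. Its median over the tested members was -0.69, from -2.14 (Slfn2) to 0.49 (Ifi27), against -0.01 over all genes. The 18 were Slfn2, Isg15, Rsad2, Ifit3b, Ifit3, Ifit1, Ifitm3, Usp18, Oasl2, Zbp1, Parp14, Trim30a, Xaf1, Helz2, Parp12, Dtx3l, Cmpk2 and Eif2ak2. Of these, Zbp1 passed the filter only through the SL libraries. Without LS replicates 2 and 3, 9 were called (Slfn2, Isg15, Rsad2, Ifit3b, Ifit3, Ifit1, Ifitm3, Usp18 and Parp14), at a median of -0.75, and with the choroid plexus covariate none was called by limma, at a median of -0.85. All 15 choroid plexus markers had a positive interaction, and all 7 neutrophil markers tested a negative one. Of these neutrophil markers, Retnlg, Ngp, Mmp8, Camp and Cxcr2 passed the filter only through the SL libraries, where they are high. With 1 library left out, the calls of Oasl2 and Zbp1 were lost without SL replicate 2 (adjusted p = 0.0533 and 0.0510), those of Trim30a and Eif2ak2 in 9 of 12 fits each and those of Dtx3l and Cmpk2 in 8 each.

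**Figure D2:**
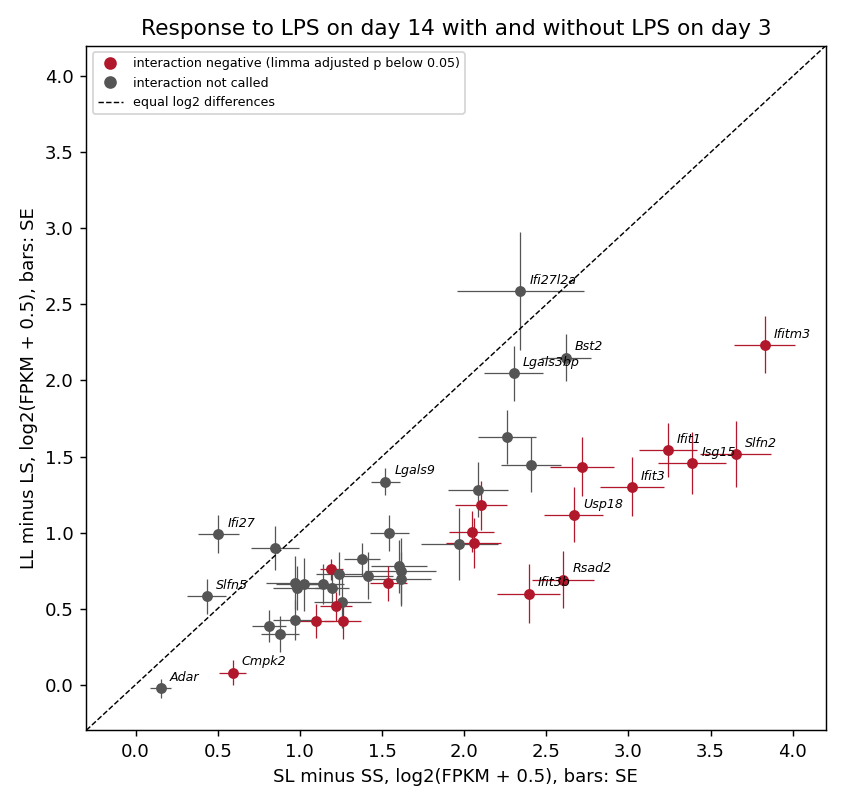
Response of each of the 46 tested members to LPS on day 14, as differences of log2(FPKM + 0.5) with their SE: in pups given LPS on day 3 (LL minus LS, y axis) and in pups given saline on day 3 (SL minus SS, x axis). The dashed line marks equal responses, the 18 red points have a negative interaction, and Ifi27, Slfn5, Ifi27l2a and Sp100 stand above the line.

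LL and SL hippocampi were both taken 24 h after LPS and differed in the day 3 injection. Of the 46 members, 36 were lower in LL than in SL and none was higher, while of all genes 5.46% were lower and 3.32% higher. The 36 include Oas2, Oasl1, Herc6, Mx1, Zbp1 and Ifi44, which passed the filter only through the SL libraries. The median difference was -0.78 over the tested members and -0.00 over all genes. Every SL library lay above every LL library in 41 of 48 members (13.9% of the genes tested), and in no member did every LL library lie above every SL library (12.2%). The members not called were Ifi27, Bst2, Adar, Lgals9, Ifi27l2a, Slfn5, Trim21, Dhx58, Sp100 and Phf11d. With each library left out in turn 25 of the 36 calls held, and those lost without at least 1 library were Oas1a, Oas2, Ifit2, Herc6, Mx1, Mx2, Samd9l, Slfn8, Ifi204, Ifi35 and Lgals3bp. With the choroid plexus covariate 23 members were called, at a median of -0.82. Of the 15 choroid plexus markers 5 were called higher in LL than in SL, at a median difference of 1.63 over the 15. All 10 microglial markers were higher in LL than in SL, at summed levels of 139 to 144 FPKM in LL and 69.6 to 95.6 FPKM in SL. All 7 neutrophil and 2 of 3 monocyte markers tested were lower. Of the neutrophil and monocyte markers tested, Retnlg, Ngp, Mmp8, Camp, Cxcr2, Chil3 and Plac8 passed the filter only through the SL libraries. The part of these cell types in the members' difference was not tested.

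LS against SS gives the levels left by the day 3 injection without LPS on day 14. None of the 46 members was called by limma in either direction, while of all genes limma called 0.147% higher and 0.164% lower. Limma voom called no member either. At an unadjusted p below 0.05 there were 4 of 46 members and 2230 of 17687 genes. The differences had a median of -0.04 and ran from -0.42 (Lgals3bp) to 0.36 (Slfn2). Without LS replicates 2 and 3, which had low choroid plexus levels, Lgals3bp was at -0.16 and Slfn2 at 0.47. With the choroid plexus covariate they were at 0.07 and 0.59. Every SS library lay above every LS library in 6 members (Ifi27, Lgals3bp, Ddx58, Eif2ak2, Trim21 and Oasl1; 8.63% of the genes tested), and every LS library above every SS library in Oas3 (9.36%).

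**Figure D3:**
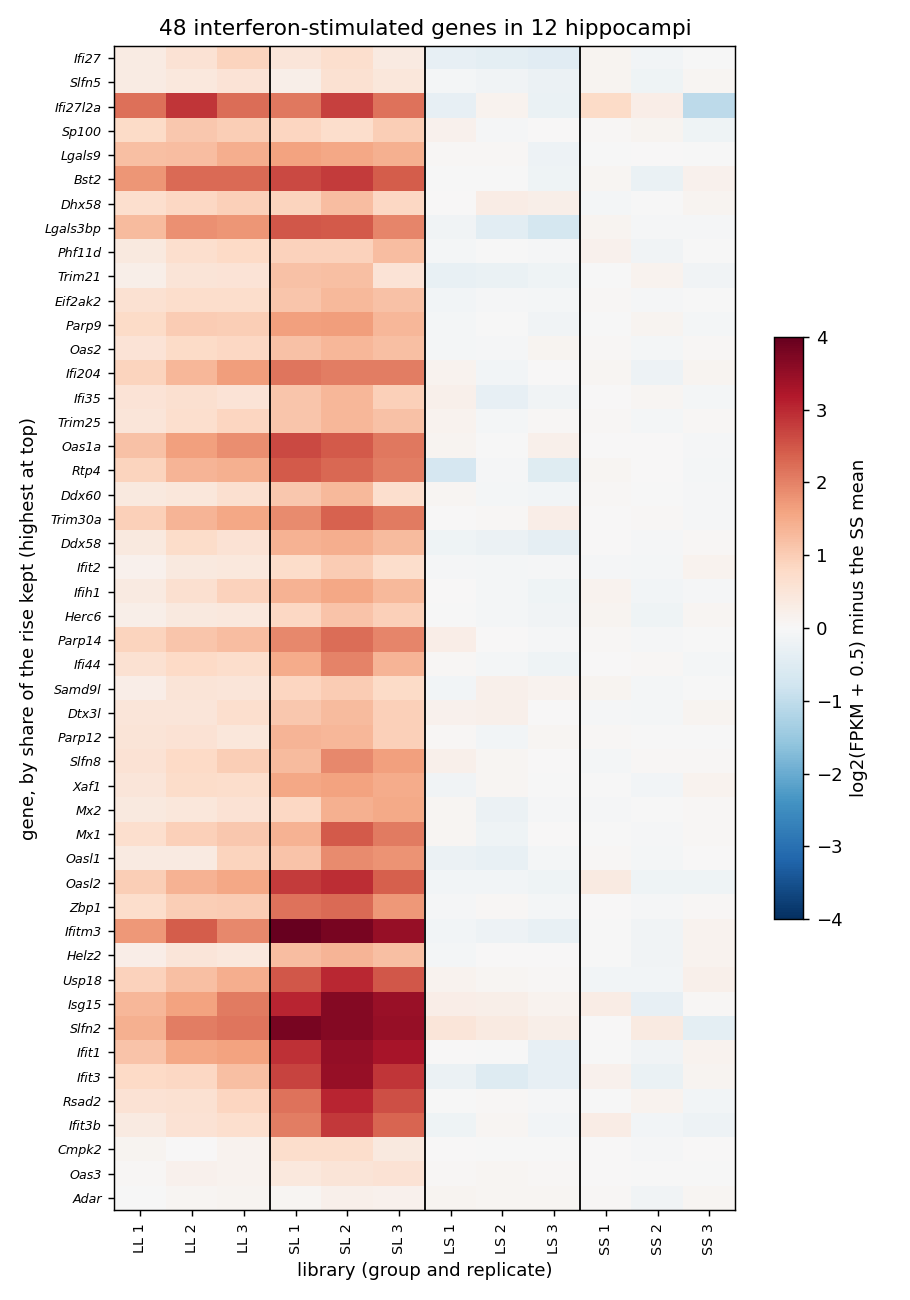
Levels of the 48 members (rows, from the highest share of the rise kept at the top) in the 12 libraries (columns), as log2(FPKM + 0.5) minus the mean of the SS libraries. SL libraries are darkest in nearly all rows, LL libraries are intermediate in most rows, and LS and SS libraries are pale; LL replicate 1 was the lowest of its group in 46 of 48 members.

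The response kept was expressed for each member as the rise in LL over LS divided by the rise in SL over SS, both in FPKM. Its median over the 48 members was 34.0%, with a jackknife SE over animals of 6.77 percentage points, and it lay between 31.3% without LL replicate 3 and 40.1% without LL replicate 1. The share was under 25% in 12 members and under 50% in 37, and it was at least 75% in Ifi27, Slfn5, Ifi27l2a, Sp100 and Lgals9. On the log2 scale the median ratio was 49.9%. The place of a member can depend on the scale. Ifitm3 (24.4% in FPKM, 58.4% in log2) and Oasl2 (28.1% and 52.7%) lay below the median in FPKM and above it in log2. The 1204 other genes that rose in SL had a median share of 17.3%; those genes were selected by that rise, and the difference was not tested. By role the median share was 11.2% for Cmpk2 alone, 18.3% for the IFIT family, 23.1% for the ISG15 system, 28.3% for the OAS family, 41.3% for RNA sensors, 69.5% for the pair of galectin genes and 79.4% for the 4 IFI27, IFI35 and IFI44 genes. Members with an ISRE match had a median of 39.1% and those with a window but no match 32.2%.

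**Figure D4:**
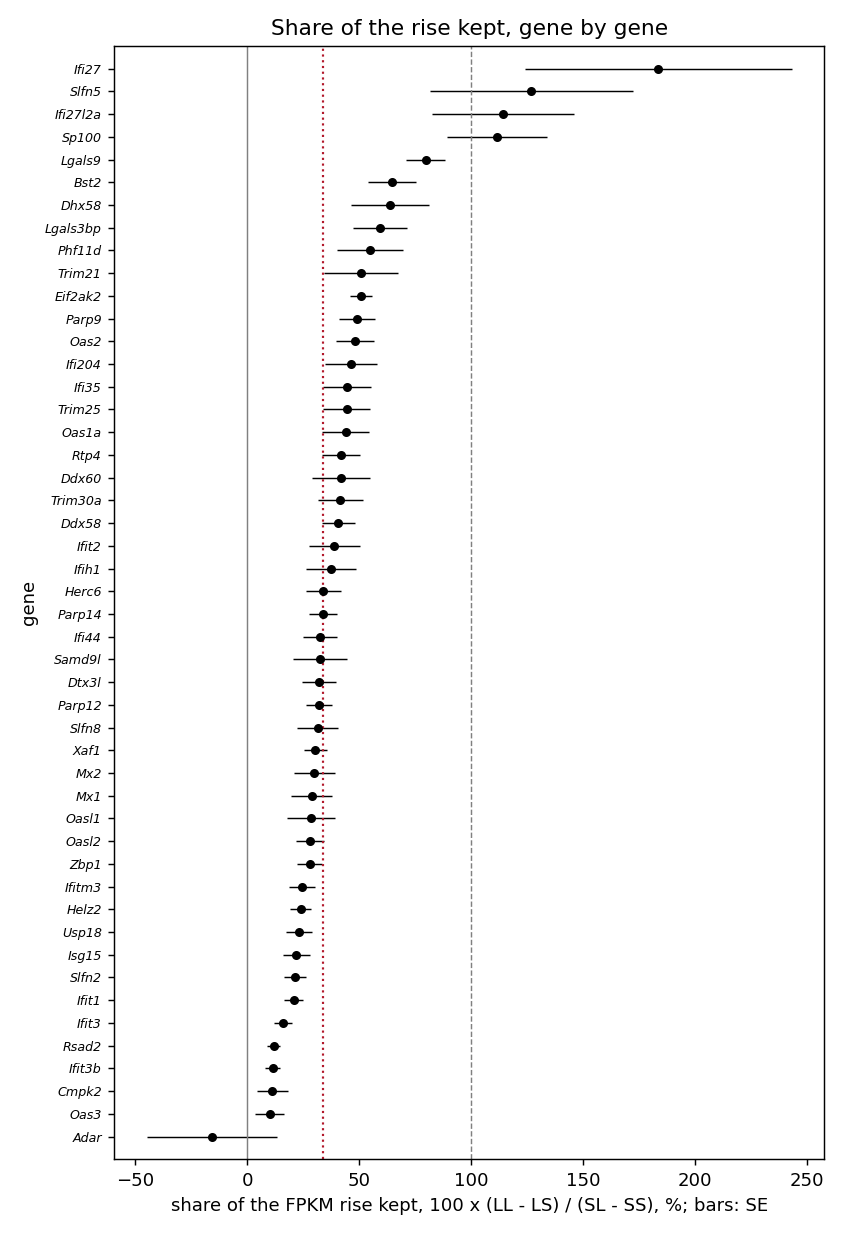
Share of the FPKM rise kept by each of the 48 members (points) with its SE from the spread between animals (bars); the solid line marks 0%, the dashed line 100% and the red dotted line the median of 34.0%. Ifi27 is highest at 184% with the widest error, 37 members lie under 50%, and Adar, which was not called in any comparison, has an error that spans 0%.

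The IFIT family includes Ifit1, which binds viral RNA that lacks the marks of host messenger RNA. Ifit3 (chromosome 19, 34583531 to 34588731, mm10) was at 3.25, 3.38 and 4.49 FPKM in LL, 13.6, 23.7 and 15.3 in SL, 1.35, 1.02 and 1.21 in LS, and 1.92, 1.29 and 1.83 in SS. Its SL libraries stood far above the rest, LL lay between, and LS and SS overlapped. It rose by 3.02 (SE 0.19, adjusted p = 1.12e-06) in SL over SS and by 1.30 (SE 0.19, adjusted p = 0.00474) in LL over LS, and kept 15.8% (SE 4.02). Ifit3b, its near copy, was at 1.03, 1.28 and 1.40 FPKM in LL, 4.41, 7.88 and 5.46 in SL, 0.565, 0.770 and 0.597 in LS, and 0.969, 0.608 and 0.541 in SS. LL exceeded LS in every library, but the difference of 0.60 (adjusted p = 0.174) was not called, and the share kept was 11.3% (SE 3.31). The interaction was -1.72 for Ifit3, -1.79 for Ifit3b and -1.70 for Ifit1 (SE 0.27, 0.27 and 0.25). Fragments shared by Ifit3 and Ifit3b may have been split between them, so their separate values are uncertain. Ifit2 had the smallest rise of the family in SL, 0.81, and kept 38.8%.

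Isg15 encodes a ubiquitin-like protein that is attached to other proteins, in the mouse by the ligase Herc6, and Usp18 removes it and restrains the interferon receptor. Isg15 (chromosome 4, 156199424 to 156200818) was at 4.26, 5.17 and 7.44 FPKM in LL, 15.2, 23.3 and 19.9 in SL, 1.76, 1.71 and 1.58 in LS, and 1.79, 0.996 and 1.43 in SS. The SL libraries were the highest, all LL libraries lay above LS and SS, and LS and SS overlapped. The rise was 3.39 (SE 0.21) in SL and 1.46 (SE 0.21) in LL, an interaction of -1.93 (SE 0.29, adjusted p = 0.00262). Usp18 kept 23.1% and had an interaction of -1.55, while Herc6 kept 34.0% and its interaction of -0.54 was not called.

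The OAS enzymes make an oligonucleotide that activates an RNA-degrading enzyme. Oasl2, a member of this family, was at 1.24, 1.82 and 2.10 FPKM in LL, 5.66, 6.38 and 4.18 in SL, 0.324, 0.327 and 0.281 in LS, and 0.626, 0.282 and 0.289 in SS. SL and LL did not overlap, both lay above the saline groups, and SS replicate 1 was above the other SS libraries. Its interaction was -1.29 (SE 0.27, adjusted p = 0.0188; -1.17 without SL replicate 2). Oas1a, with 0.811 to 1.59 FPKM in LL, 2.03 to 3.10 in SL, 0.0791 to 0.173 in LS and 0.0574 to 0.0934 in SS, kept 44.0%. Oas2 kept 48.1% and Oasl1, known in the mouse to limit the translation of Irf7, 28.3%. Oas3 rested on 120 fragments in all 12 libraries and stayed at 0.0228 to 0.0636 FPKM in LL, against 0.167 to 0.243 in SL. All 4 tested members of the family rose in SL, 3 rose in LL over LS, and all 4 were lower in LL than in SL. With 1 library left out, the lower level of Oas2 (-0.52, adjusted p = 0.0446) was called in none of the 12 fits (adjusted p 0.0520 to 0.168), and that of Oas1a (-0.85) was not called without SL replicate 1 or 2 or LL replicate 1 (adjusted p 0.0506 to 0.0577).

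The RNA sensors Ddx58 (RIG-I) and Ifih1 (MDA5) detect viral RNA in the cytosol, and Dhx58 (LGP2) modulates them. Ddx58 was at 1.21, 1.68 and 1.45 FPKM in LL, 2.95, 3.12 and 2.64 in SL, 0.656, 0.613 and 0.516 in LS, and 0.816, 0.764 and 0.845 in SS. The 4 groups did not overlap, with SL highest and LS lowest. The gene rose by 1.38 (SE 0.11) in SL and by 0.83 (SE 0.11, adjusted p = 0.00229) in LL, and its interaction of -0.55 was not called (adjusted p = 0.0661; -0.64 and 0.0457 without LL replicate 2). Ifih1 kept 37.5% and Ddx60, a helicase below the filter, 41.9%. Dhx58 kept 63.7%, and it was not called between LL and SL (-0.16). Its rise in LL over LS of 0.63 (limma adjusted p = 0.0442) was not called in 11 of the 12 fits with 1 library left out.

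Trim25, the ubiquitin ligase that modifies RIG-I, was at 2.71, 3.20 and 3.68 FPKM in LL, 4.50, 5.25 and 4.66 in SL, 2.04, 1.67 and 1.90 in LS, and 1.90, 1.67 and 1.87 in SS. It rose by 1.2 in SL and by 0.64 in LL (SE 0.10 each), with no overlap between SL, LL and the saline groups. Its interaction of -0.56 was not called (adjusted p = 0.0542; 0.0292 without LL replicate 3). Trim30a kept 41.5%, Trim21, a cytosolic antibody receptor, 50.9%, and Dtx3l 32.0%. Dtx3l and its partner gene Parp9 overlap by 682 bases on opposite strands, and the sources used here do not say whether counting used strand. Parp12, a member of the ADP-ribosyltransferase family, was at 3.88, 4.07 and 3.72 FPKM in LL, 7.37, 7.19 and 5.48 in SL, 2.66, 2.36 and 2.70 in LS, and 2.67, 2.51 and 2.51 in SS. Here too SL and LL stood apart from each other and from the overlapping saline groups, with an interaction of -0.70 (SE 0.14). Its rise in LL, 0.51 (adjusted p = 0.0182), was not called without LS replicate 2 or 3 or any LL library. Parp9 kept 49.1% and Parp14 33.9%. All 3 ADP-ribosyltransferases rose in both responses and were lower in LL than in SL.

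Among membrane proteins, Ifitm3, which blocks the fusion of viruses with endosomes, had the highest level of all members in SL. It was at 44.1, 71.8 and 51.1 FPKM in LL, 245, 189 and 151 in SL, 11.9, 11.2 and 10.5 in LS, and 12.9, 11.7 and 14.5 in SS. SL exceeded LL and LL exceeded the saline groups without overlap. The rise was 3.83 in SL and 2.23 in LL (SE 0.19 each), and 24.4% was kept in FPKM (SE 5.85) and 58.4% on the log2 scale. Bst2 (tetherin), which holds budding virus at the cell surface, was at 16.8, 24.0 and 24.0 FPKM in LL, 31.5, 35.3 and 27.1 in SL, 4.63, 4.57 and 4.09 in LS, and 4.94, 3.78 and 5.34 in SS. It rose by 2.62 in SL and by 2.15 in LL (SE 0.15 each), kept 64.7% (SE 10.8), and its interaction of -0.47 was not called (adjusted p = 0.300). Its LL levels stood close to SL without overlap, and the difference of -0.53 was not called (adjusted p = 0.0558), though it was without SS replicate 2 or SL replicate 3 (0.0469 and 0.0396). Rtp4, a chaperone of cell surface receptors, kept 42% and rose by 2.26 in SL and by 1.63 in LL. It overlaps Masp1, a gene on the opposite strand at a mean of 1.52 FPKM, by 525 bases, and whether counting used strand is not known.

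Rsad2 (viperin) converts a nucleotide to a terminator of viral RNA synthesis, and Cmpk2, a mitochondrial kinase, supplies such nucleotides; the genes are neighbours on chromosome 12 (26442746 to 26479837 together). Rsad2 was at 0.557, 0.560 and 0.761 FPKM in LL, 2.68, 5.25 and 3.72 in SL, 0.193, 0.218 and 0.175 in LS, and 0.190, 0.267 and 0.150 in SS. SL stood far above all other libraries, and LL exceeded the saline groups without overlap. Its difference of 0.69 between LL and LS was not called (adjusted p = 0.0974; 0.0344 and 0.0427 without SL replicate 1 or 2), and it kept 11.7% (SE 3.03), with an interaction of -1.91 (SE 0.27, adjusted p = 0.00160). Cmpk2 was at 6.22, 5.79 and 6.48 FPKM in LL, 9.64, 9.72 and 7.67 in SL, 5.88, 5.76 and 5.76 in LS, and 5.84, 5.61 and 5.90 in SS. The SL libraries alone stood apart, and LL overlapped LS. Cmpk2 rose by 0.59 in SL (SE 0.08), differed by 0.08 between LL and LS (adjusted p = 0.753) and kept 11.2% (SE 6.82). Its interaction of -0.51 (adjusted p = 0.0230) was not called without SS replicate 1 or 2, SL replicate 1 or 2, LS replicate 2 or 3, or LL replicate 1 or 2 (adjusted p of up to 0.0628).

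**Figure D5:**
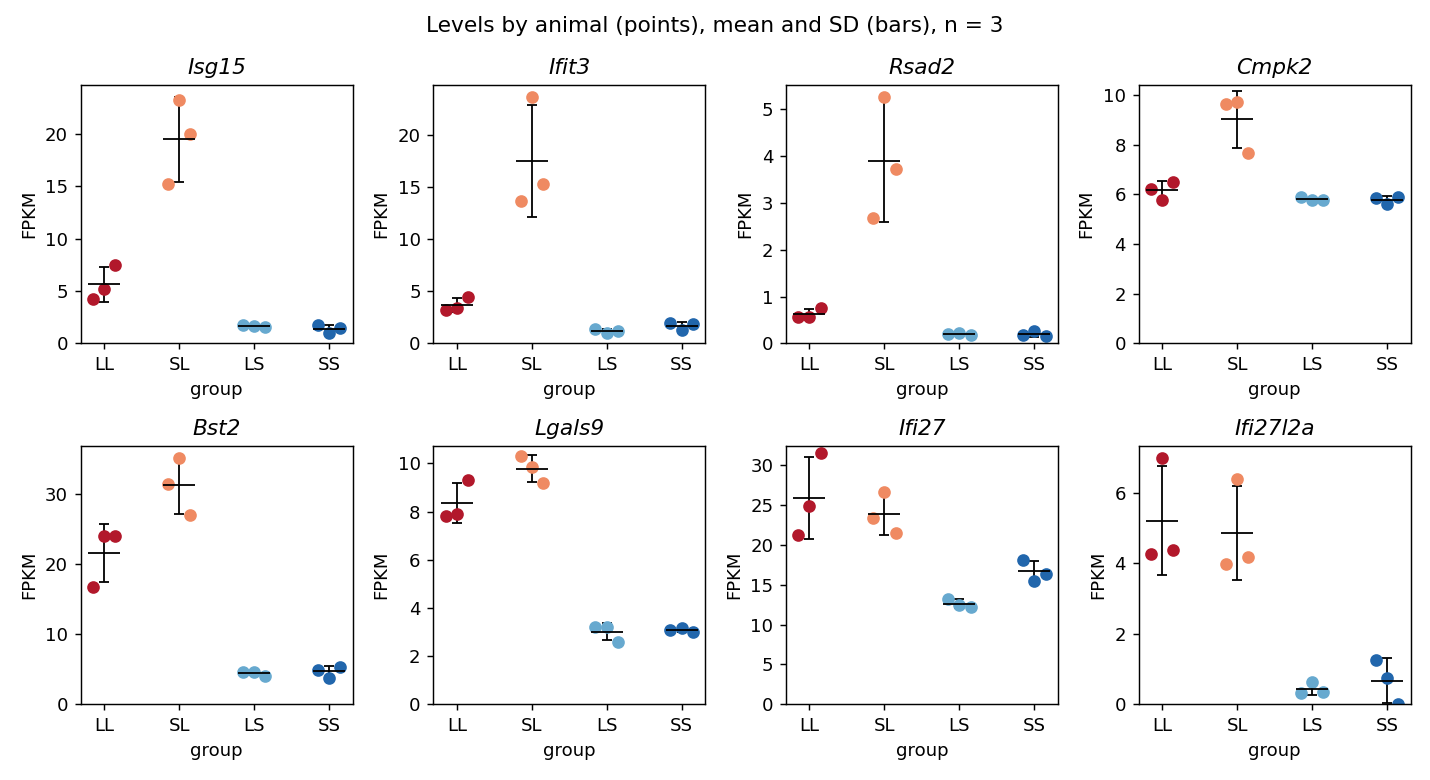
FPKM of 8 members in each animal (points), with the mean and SD of the 3 animals per group (bars), groups LL, SL, LS and SS on the x axis; each y axis starts at 0. LL lies near the saline groups in Ifit3, Rsad2 and Cmpk2, between them and SL in Isg15 and Bst2, and at the level of SL in Ifi27 and Ifi27l2a.

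Ifi27, a mitochondrial membrane protein gene, and its neighbour Ifi27l2a on chromosome 12 (103434211 to 103443680 together) kept the highest shares with Slfn5. Ifi27 was at 21.2, 24.9 and 31.5 FPKM in LL, 23.4, 26.7 and 21.5 in SL, 13.2, 12.5 and 12.1 in LS, and 18.1, 15.5 and 16.4 in SS. LL overlapped SL, and LS lay below SS without overlap. The rise was 0.99 in LL (adjusted p = 0.00171) and 0.50 in SL (adjusted p = 0.0218; SE 0.12 each), the SL value not called without SS replicate 2 or 3 or SL replicate 1 or 2 (adjusted p 0.0537 to 0.0843). The share kept was 184% with an SE of 59.6, and the interaction of 0.49 was not called (adjusted p = 0.167; 0.62 and 0.0488 without LL replicate 1). Ifi27l2a was at 4.26, 6.99 and 4.39 FPKM in LL, 3.97, 6.38 and 4.19 in SL, 0.319, 0.644 and 0.352 in LS, and 1.27, 0.751 and 0 in SS. LL and SL overlapped, both stood above the saline groups, and the share kept was 114% (SE 31.7). The rise was 2.59 in LL and 2.34 in SL (SE 0.39 each). With the choroid plexus covariate the rise in LL was not called by limma for Ifi27 (0.77, adjusted p = 0.331) or Ifi27l2a (2.82, adjusted p = 0.263). The interaction of Ifi27 was then 0.12. Ifi35 kept 44.5% and Ifi44 32.6%.

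Lgals9 encodes a galectin, a sugar-binding protein, and Lgals3bp a secreted glycoprotein that binds galectin 3. Lgals9 was at 7.81, 7.91 and 9.31 FPKM in LL, 10.3, 9.85 and 9.18 in SL, 3.22, 3.21 and 2.59 in LS, and 3.08, 3.14 and 3.01 in SS. LL and SL overlapped, well above the saline groups. It rose by 1.34 in LL and by 1.52 in SL (SE 0.09 each), and kept 79.6% (SE 8.76), with no call between LL and SL (-0.22, adjusted p = 0.169). Lgals3bp was at 12.8, 18.8 and 18.3 FPKM in LL, 30.3, 29.5 and 20.9 in SL, 4.42, 3.58 and 2.90 in LS, and 5.36, 4.82 and 4.77 in SS. No groups overlapped. It rose by 2.05 in LL and by 2.30 in SL (SE 0.18 each) and kept 59.3%. Its lower level in LL than in SL, -0.68 (adjusted p = 0.0396), was not called in 9 of the 12 fits with 1 library left out, the others being those without SL replicate 3 or LS replicate 1 or 3 (adjusted p of up to 0.144).

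Genes that act on RNA and translation kept widely different shares. Slfn5, Slfn8 and Slfn2 lie in a stretch of chromosome 11 (82951349 to 83070678) and belong to the Schlafen family. Slfn5 was at 1.75, 1.90 and 2.15 FPKM in LL, 1.63, 2.23 and 1.99 in SL, 1.21, 1.15 and 1.02 in LS, and 1.43, 1.11 and 1.40 in SS. LL and SL overlapped, as did LS and SS. It rose by 0.58 in LL and by 0.43 in SL (adjusted p = 0.0233 and 0.0362), and kept 127% (SE 45.4). The rise in SL was not called without any 1 SS library, SL replicate 2 or 3, LS replicate 2 or LL replicate 2 (adjusted p 0.0519 to 0.132), and that in LL not without LS replicate 2 or 3 or LL replicate 2 or 3 (adjusted p 0.0828 to 0.117). Slfn8 kept 31.4% and Slfn2 21.3%, with the most negative interaction of all members, -2.14 (SE 0.30). Slfn2 was at 1.81, 3.13 and 3.38 FPKM in LL, 11.6, 10.6 and 9.33 in SL, 0.709, 0.627 and 0.522 in LS, and 0.388, 0.627 and 0.163 in SS. Eif2ak2 (PKR), which halts translation on sensing double-stranded RNA, kept 50.8% (SE 4.77), and Samd9l 32.5%.

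Adar edits adenosines in double-stranded RNA and had the smallest difference of the tested members in both SL against SS and LL against LS. It was at 13.8, 14.9 and 15.2 FPKM in LL, 14.7, 16.1 and 16 in SL, 15.2, 14.7 and 14.7 in LS, and 14.5, 12.7 and 14.8 in SS. All groups overlapped, and no comparison called it; between SL and SS its difference was 0.15 (SE 0.06, adjusted p = 0.171). Adar overlaps Chrnb2, a receptor gene on the opposite strand at a mean of 7.62 FPKM, over 7252 bases.

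Of the nuclear proteins, Xaf1, a partner of an inhibitor of cell death, was at 0.824, 1.07 and 1.03 FPKM in LL, 2.23, 2.38 and 2.13 in SL, 0.357, 0.487 and 0.440 in LS, and 0.438, 0.371 and 0.531 in SS. SL and LL stood apart from each other and from the overlapping saline groups. It kept 30.4% with an interaction of -0.87 (SE 0.16), and its rise in LL of 0.67 was not called without LL replicate 2 or 3 (adjusted p = 0.0564 and 0.0583). Sp100, a component of nuclear bodies, was at 0.703, 0.982 and 0.896 FPKM in LL, 0.774, 0.652 and 0.895 in SL, 0.293, 0.184 and 0.208 in LS, and 0.233, 0.261 and 0.129 in SS. LL and SL overlapped well above the saline groups, and the share kept was 112% (SE 22.4). Zbp1, a sensor of Z-form nucleic acids, kept 27.8%, Helz2 23.9%, Ifi204 46.4% and Phf11d 55.0%.

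The Mx proteins are GTPases that trap viral components, and the Mx1 protein of C57BL/6J mice is known to be defective. Mx2 has the biotype polymorphic pseudogene in the deposited table. Mx2 was at 0.813, 0.858 and 0.995 FPKM in LL, 1.27, 2.21 and 2.38 in SL, 0.558, 0.344 and 0.466 in LS, and 0.471, 0.497 and 0.539 in SS. The groups LL, SL and saline did not overlap. It rose by 1.26 in SL (SE 0.17), and its difference of 0.54 between LL and LS was not called (adjusted p = 0.173; 0.0351 without SL replicate 1). Its LL level lay below SL, at a difference of -0.79 (adjusted p = 0.0160), not called without SL replicate 2 or 3 or LL replicate 1 or 2. Mx1 kept 28.7% and Mx2 29.9%.

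Members that lie close together did not always keep like shares in FPKM. Rsad2 and Cmpk2 kept 11.7% and 11.2%, and Mx1 and Mx2 28.7% and 29.9%. In the IFIT stretch on chromosome 19 (34550694 to 34650009) Ifit2 kept 38.8%, Ifit3 15.8%, Ifit3b 11.3% and Ifit1 20.8%. In the Schlafen stretch the range was 21.3% to 127%. On the log2 scale Rsad2 and Cmpk2 kept 26.5% and 13.4%, and Ifit2 and Ifit1 47.2% and 47.6%. These are descriptions of single genes in the same animals, and differences between genes were not tested.

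Other genes of the interferon pathway were taken from a list of 39, of which 27 passed the filter. In SL over SS 16 rose, in LL over LS 6 rose, 8 had a negative interaction and 11 were lower in LL than in SL. None changed the other way in any of these by limma. The shares of all genes tested were 7.06%, 2.4%, 3.19% and 5.46%, in the same order. The 16 that rose in SL include Tlr4, which passed the filter only through the SL libraries and had to differ. The 10 interferon genes listed could not be tested. Ifnb1, the interferon beta gene, had 1 fragment in the 12 libraries, in SL replicate 2, and the limit that a count of 0 allows was 3 fragments or 0.161 to 0.235 FPKM per library. Ifna1, Ifna2, Ifna4, Ifna5, Ifnl2 and Ifnl3 had no fragment. Counting error alone is covered by these limits.

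The receptor genes Ifnar1 and Ifnar2 and the kinase genes Jak1 and Tyk2 were not called in any comparison; Ifnar2 was at 4.36 to 5.43 FPKM in LL, 4.84 to 6.25 in SL, 3.79 to 4.74 in LS and 3.97 to 4.80 in SS. Of the 8 transcription factor genes 7 rose in SL, and Irf3 was not called. Irf7, which drives interferon and its target genes, was at 1.14, 2.01 and 2.04 FPKM in LL, 5.96, 6.77 and 4.92 in SL, 0.143, 0.237 and 0.173 in LS, and 0.233, 0.215 and 0.215 in SS. It rose by 3.14 in SL and by 1.68 in LL (SE 0.17 each), kept 27.3% and had an interaction of -1.46 (adjusted p = 0.00427). Irf9 kept 39.8% and Stat2 22.8%, and both Irf9 (-0.54) and Stat2 (-0.49) had negative interactions. Irf5 kept 128% with an SE of 52.6, and its LL difference of 0.72 was not called (adjusted p = 0.0503).

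Among sensors and kinases upstream, Ikbke, which activates Irf3 and Irf7, had an interaction of -1.58 (SE 0.22) and kept 9.64%, whereas Tmem173 (STING), the adaptor of DNA sensing, kept 59.2% with an interaction of -0.40 that was not called. Tlr4 rose by 0.64 in SL, and its difference between LL and LS of 0.40 was not called. It passed the filter only through the SL libraries, so its rise in SL had to appear. Of the inhibitors, Socs3, induced by cytokines that signal through Stat3, was at 1.35, 3.20 and 1.84 FPKM in LL, 22.7, 17.9 and 16.5 in SL, 0.816, 0.739 and 1.15 in LS, and 0.711, 0.761 and 0.805 in SS. Only SL stood far above the rest; the gene kept 6.74% and had an interaction of -3.08 (SE 0.31). Ptpn6, a phosphatase that dampens receptor signalling, was at 6.26, 6.35 and 5.95 FPKM in LL, 8.63, 8.07 and 7.46 in SL, 2.4, 2.5 and 3.04 in LS, and 1.24, 1.51 and 1.2 in SS. No groups overlapped, and it was the pathway gene called between LS and SS, higher by 0.79 (SE 0.09, adjusted p = 0.0103).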

How the data were processed

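Levels were the deposited FPKM values of 12 libraries of polyA RNA, made by the authors with HISAT2 2.0.5, featureCounts 1.5.0-p3 and mm10, per the submitters' processing notes. The sources used here give neither the strand setting nor how shared fragments were treated or the divisor set. FPKM times gene length gave whole fragments for 100% of 309337 values above 0, within 0.01 fragments. Replicates are separate animals, per the labels' protocols.

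With limma 3.58.1 in R 4.3.3, log2(FPKM + 0.5) of 17687 genes was modelled by 4 group means, leaving 8 residual degrees of freedom, with moderation along a mean trend. Two-sided p values were adjusted after Benjamini and Hochberg over all genes within a comparison, and an adjusted p below 0.05 is a call; both come from limma unless another tool is named. Exact permutation tests were not used, since 3 against 3 animals allow no p below 0.1. The share kept has a delta-method SE. Scripts were tested on simulated data. The members, gene lists, role groups and alternatives were chosen with earlier results of these data known. Values in every library are given for the member with the highest mean level in each role group and, among members called in SL against SS with an SL mean of at least 1 FPKM, for the 4 highest and 4 lowest shares kept; Bst2, Sp100, Slfn2, Irf7, Socs3 and Ptpn6 were added after their values were seen. Alternatives were other pseudocounts, filters, normalizations, limma voom, a replicate block, a choroid plexus covariate and libraries left out. Coordinates are those of the deposited table (mm10), and promoter windows are RefSeq's. Gene IDs were matched by symbol. The values of 1 pathway gene are not reported here.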

Additional observations from a re-analysis of the deposited data

Results flagged for a closer look

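The response to LPS on day 14 differed between pups given LPS and pups given saline on day 3 by the test of the interaction in 18 members, all negative. Among the members given in every library these were Slfn2 at -2.14, Isg15 at -1.93, Rsad2 at -1.91, Ifit3b at -1.79, Ifit3 at -1.72, Ifitm3 at -1.59, Oasl2 at -1.29, Xaf1 at -0.87, Parp12 at -0.70 and Cmpk2 at -0.51 on the log2(FPKM + 0.5) scale. Of the 18 calls, 12 held with each library left out in turn, Cmpk2 and Oasl2 not among them. Zbp1, also 1 of the 18, passed the filter only through the SL libraries. Without LS replicates 2 and 3, 9 were called, Xaf1, Parp12, Oasl2 and Cmpk2 not among them, and with the choroid plexus covariate limma called 0, at a smallest adjusted p of 0.0941.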

How the results depend on the processing

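With each library left out, the members called were 43 to 45 (SL higher than SS), 22 to 35 (LL higher than LS), 12 to 20 (interaction negative), 25 to 35 (LL lower than SL) and 0 to 0 (LS against SS), and the median share kept was 31.3% to 40.1%. With a mean of at least 2 FPKM, 19 members were tested and 18, 15, 9 and 15 were called in the first 4 of these comparisons. Without LS replicates 2 and 3, 6 members were called in LL against LS and 9 in the interaction; under the choroid plexus covariate, 2, 0 and 23 were called in LL against LS, the interaction and LL against SL. That covariate differs between groups, so the fit also removes group differences that follow it, and the cause of these losses was not tested. Limma voom called 11 interactions, and the ratio of log2 differences gave a median share of 49.9%. No called result changed direction under any setting run. Other settings moved no count of members by over 1.5 times, but quantile normalization and median centring changed the split of all genes in SL against SS to 1138 higher and 992 lower and to 1091 and 1164, from 1249 and 666, and in LL against SL to 851 and 873 and to 817 and 776, from 588 and 966. Equal replicate numbers did not pair the animals: the correlations of their deviations ran from -0.07 to 0.10 in 18 pairs, and the replicate block gave 44, 29, 17, 34 and 0 calls. The edgeR test was not run, and fitting only the groups compared is impossible for the interaction. Low levels, as in Oas3, rest on few fragments.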
